A study of Saccharomyces cerevisiae with 6 samples.

Results

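The genes described here encode the cytosolic translation factors of Saccharomyces cerevisiae and the proteins that regulate them. They comprise 24 genes of initiation factors, 11 of elongation factors, 3 of termination and ribosome recycling, and 4 regulators. They were chosen by name, through the gene symbols of the array annotation, and all 42 were found among the 5650 named genes on the array, each on 1 probe. The cultures in 6.5% (v/v) ethanol were compared with the cultures in 0% ethanol. All were of the haploid strain W303-1A, MATa, with the alleles ade2-1, can1-100, his3-11, 15, leu2-3, 122, trp1-1 and ura 3-1 as the labels spell them, and grew in the rich medium YEPD at 30 °C. Each group had 3 separate cultures, all inoculated from one kind of parent culture, unstressed and late in exponential growth, so both groups share the strain, its auxotrophies and the inoculum. RNA of each culture was hybridised on 1 two-colour array, the other channel holding pooled RNA of the 0% cultures, with the dyes exchanged on the array of culture 1 of each group. The sources used here do not give the time in ethanol or the cell density at harvest.

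Translation begins when eIF2 carries the initiator methionyl-tRNA to the small ribosomal subunit, while eIF4F (the cap-binding protein eIF4E, the scaffold eIF4G and the helicase eIF4A) brings the mRNA and eIF3 holds the assembly together. eEF1A then delivers aminoacyl-tRNAs, eEF2 moves the ribosome along, and in fungi eEF3 is needed as well, until eRF1 and eRF3 release the chain at a stop codon. In stressed or starved yeast the kinase Gcn2 phosphorylates eIF2, which blocks its exchange factor eIF2B and lowers general initiation, while the mRNA of the transcription factor Gcn4 is translated more.

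Values below are log2 ratios of culture over pool, so that 0 is the level of the 0% pool, and each change is the mean of the 6.5% cultures minus the mean of the 0% cultures with its standard error (SE) from limma (n = 3 arrays per group). Red was taken as the numerator. No source used here states this, and it is called likely because it is the usual order of the dyes and places the stress gene HSP12 higher in ethanol; with the other order every sign would turn. The array medians lay near 0, so a change is relative to the other transcripts of the array, and a loss of total mRNA per cell cannot be seen. Equal numbers of cells went into each RNA preparation, and fewer cells with a transcript and less of it per cell cannot be told apart. Ratios against a pool of the same strain hold no absolute level by which the strain or its mating type could be checked. The exchanged arrays stood apart. Across all features 6.5% culture 1 correlated at −0.06 and −0.10 with 6.5% cultures 2 and 3 and at 0.43 with 0% culture 1, while 6.5% cultures 2 and 3 correlated at 0.85, and 0% culture 1 correlated at −0.39 and −0.45 with 0% cultures 2 and 3. Dye orientation was therefore a term of the fit, and values within each orientation are given below. A gene is said to have risen or fallen where its limma p stayed below 0.05 after Benjamini-Hochberg adjustment over the 6345 features of the array.

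In 6.5% ethanol 13 of the 42 genes fell and 1 rose. Of all features 10.4% fell and 7.69% rose. The changes of the 42 genes had a median of −0.79 and ran from −1.91 (EFT2) to 1.56 (GCD6), against a median of 0.04 over all features, and 36 of the 42 lay below 0, as did 48.0% of all features. On 20 of the 42 genes the 3 arrays with 6.5% ethanol all read below the 3 arrays with 0% ethanol, and on none did they all read above. Over all features 25.3% were separated, 14.0% with the ethanol arrays below and 11.3% with them above. Of the elongation factor genes 6 of 11 fell, and of the initiation factor genes 6 of 24 fell and 1 rose. Near-identical copies, such as EFT1 and EFT2, were counted as separate genes here, although labelled cDNA of either copy may bind both probes. None of the 3 termination and recycling genes and 1 of the 4 regulators, CAF20, passed the threshold.

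**Figure D1:**
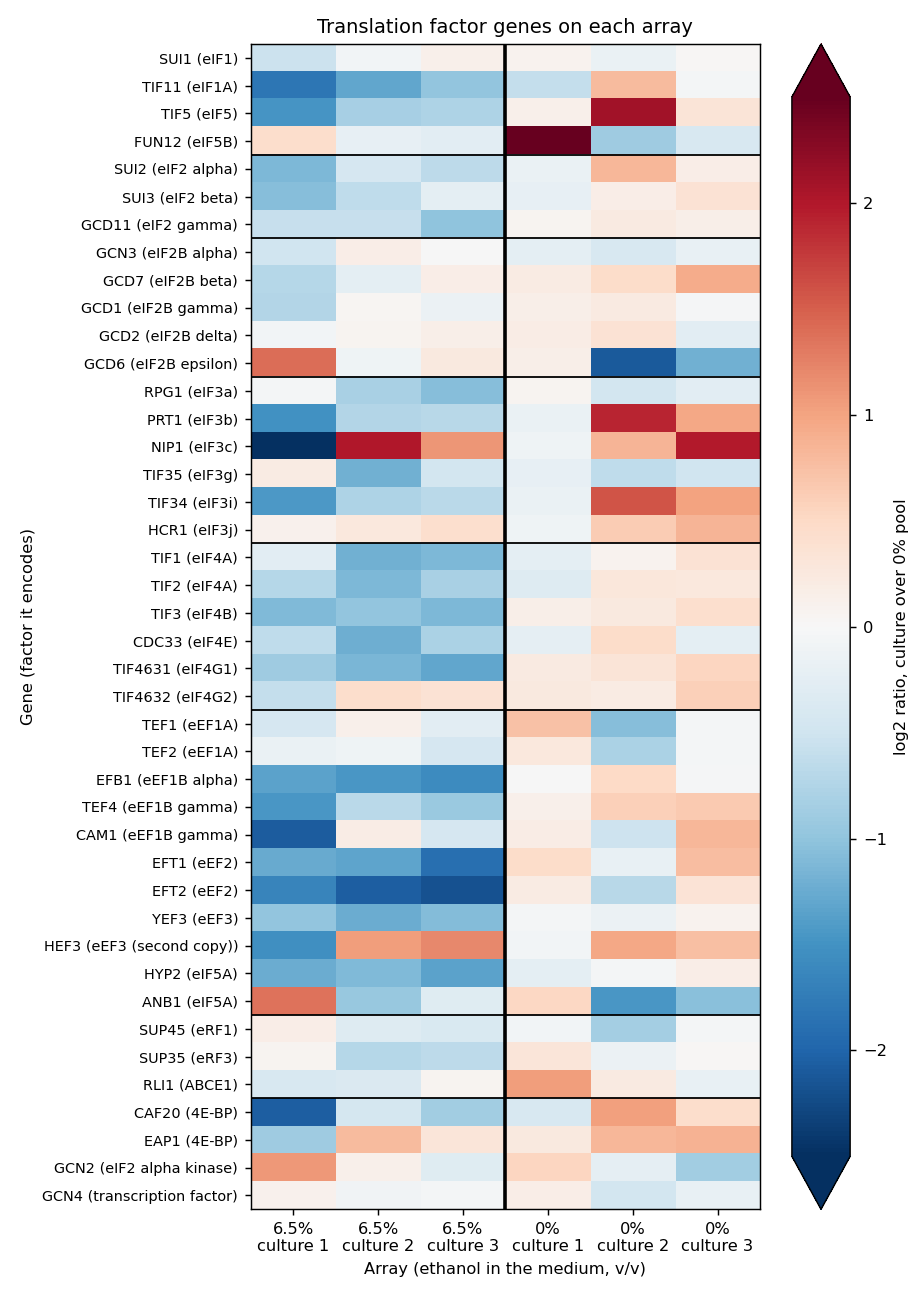
Log2 ratio of culture over 0% pool (colour, blue below and red above the pool, with values beyond 2.5 in the end colours) for each of the 42 genes (rows, grouped by role) on each of the 6 arrays (columns). The elongation factor genes TEF4, EFB1, EFT1, EFT2, YEF3 and HYP2 are blue on all 3 arrays with 6.5% ethanol. NIP1, TIF4632, HEF3 and EAP1 are blue on 6.5% culture 1 and red on 6.5% cultures 2 and 3.

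The 2 dye orientations are disjoint sets of arrays and can be read separately. On the exchanged arrays, culture 1 of 6.5% minus culture 1 of 0% ethanol had a median of −0.93 over the 42 genes, and on the other arrays cultures 2 and 3 of 6.5% minus cultures 2 and 3 of 0% ethanol had a median of −0.60. The corresponding medians over all features were −0.04 and 0.01. In both orientations 26 of the 42 genes were lower in 6.5% ethanol, or 61.9%, and 4 were higher. Of all features 33.6% were lower in both, and 2092 of the 6345 were higher in both.

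Among the factors that select the start codon, TIF11 (YMR260C), which encodes eIF1A, fell, and so did TIF5 (YPR041W), which encodes eIF5, the protein that makes eIF2 hydrolyse its GTP. TIF11 read −1.80, −1.30 and −0.99 on the arrays of 6.5% cultures 1, 2 and 3, against −0.59, 0.80 and −0.04 on those of 0% cultures 1, 2 and 3. The groups did not overlap, and TIF11 fell by 1.42 ± 0.31 (adjusted p = 0.0267). TIF5 read −1.47, −0.84 and −0.78 in 6.5% ethanol, against 0.12, 2.10 and 0.33 in 0% ethanol. All its ethanol arrays lay below the 0% arrays, of which culture 2 was far above its fellows. TIF5 fell by 1.88 ± 0.46 (adjusted p = 0.0353), and without 0% culture 2 by 1.33 (adjusted p = 0.0498). Both calls were lost with a trend along the probe number removed from each array (a change of −1.12 with adjusted p = 0.0564 for TIF11, and of −1.45 with adjusted p = 0.0710 for TIF5). That of TIF11 was also lost with the culture number as a block, which leaves the change itself as it was (adjusted p = 0.0557). Scaling to equal spread left TIF11 at −0.88 (adjusted p = 0.210) and TIF5 at −1.60 (adjusted p = 0.0767), with neither called.

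SUI1 (YNL244C), which encodes eIF1, the factor that keeps the scanning ribosome open, was at −0.15 ± 0.27 (95% interval −0.80 to 0.50). FUN12 (YAL035W), which encodes eIF5B, the GTPase that joins the large subunit, read 0.44, −0.20 and −0.26 in 6.5% ethanol, against 3.61, −0.89 and −0.41 in 0% ethanol. Its change of −0.78 ± 0.70 thus rested on 0% culture 1, and without that array it was 0.42. Neither gene was called (adjusted p = 0.734 and 0.460).

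All 3 subunits of eIF2, the GTPase that carries the initiator tRNA, read lower in 6.5% ethanol without passing the threshold. SUI2 (YJR007W), the alpha subunit that Gcn2 phosphorylates, read −1.13, −0.42 and −0.66 in 6.5% ethanol, against −0.16, 0.82 and 0.16 in 0% ethanol. This is a change of −1.01 ± 0.28, just beyond the threshold at an adjusted p of 0.0501. GCD11 (YER025W), the gamma subunit that binds GTP and the tRNA, read −0.58, −0.57 and −1.004 in 6.5% ethanol, against 0.08, 0.22 and 0.14 in 0% ethanol. On these 2 genes and on SUI3 (YPL237W), the beta subunit, the groups did not overlap. GCD11 was at −0.86 ± 0.26 (adjusted p = 0.0621), and after removal of the probe-order trend it fell by 1.11 (adjusted p = 0.0350). SUI3 was at −0.75 ± 0.25 (adjusted p = 0.0827), or −0.33 with the trend removed.

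The gene that rose belongs to the exchange factor eIF2B. GCD6 (YDR211W), its catalytic epsilon subunit, read 1.40, −0.11 and 0.24 in 6.5% ethanol, against 0.16, −2.09 and −1.20 in 0% ethanol. The groups overlapped, since 0% culture 1 lay above 6.5% culture 2, but within each dye orientation the ethanol arrays were higher, by 1.25 and by 1.71. GCD6 rose by 1.56 ± 0.33, or 2.94-fold (adjusted p = 0.0237). Of the 15 alternative settings 7 kept the call of GCD6, but these are not all separate checks. Leaving out 6.5% culture 1, 0% culture 1 or both gave the same change (1.71, limma adjusted p = 0.0317). The choice of probe could not alter the values of GCD6, which has a single probe. The call was lost with the trend removed (1.19, adjusted p = 0.0644) and without 0% culture 2 (1.26, adjusted p = 0.0553). Scaling to equal spread and quantile normalization left GCD6 at 1.27 and 1.31, uncalled (adjusted p = 0.0752 and 0.0641). A fit that ignored dye orientation gave an adjusted p of 0.302. Dropping 6.5% culture 2 or 3 gave 0.101 and 0.111.

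The other 4 eIF2B genes were not called. GCD1 (YOR260W), the gamma subunit that works with GCD6 in nucleotide exchange, was at −0.39 ± 0.28 (95% interval −1.05 to 0.26), and at 0.02 after trend removal. The 3 regulatory subunits sense phosphorylated eIF2. Among them GCD7 (YLR291C, beta) read −0.71, −0.24 and 0.17 in 6.5% ethanol, against 0.21, 0.45 and 0.93 in 0% ethanol, with no overlap and an adjusted p of 0.0900 (−0.79 ± 0.27). GCD2 (YGR083C, delta) was at −0.05 ± 0.28 and GCN3 (YKR026C, alpha) at 0.17 ± 0.27, with adjusted p of 0.923 and 0.696.

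Of the 6 subunits of eIF3, the scaffold on the small ribosomal subunit, PRT1 and TIF34 fell. PRT1 (YOR361C, eIF3b) read −1.52, −0.72 and −0.69 in 6.5% ethanol, against −0.17, 1.91 and 0.96 in 0% ethanol. TIF34 (YMR146C, eIF3i), which binds eIF3b, read −1.44, −0.77 and −0.67 in 6.5% ethanol, against −0.17, 1.56 and 1.01 in 0% ethanol. Both genes had the same order of arrays, with 6.5% culture 1 lowest, 0% culture 2 highest and no overlap between the groups. PRT1 fell by 1.88 ± 0.35 and TIF34 by 1.76 ± 0.30 (adjusted p = 0.0168 and 0.0138), and without 0% culture 2 they fell by 1.53 and 1.53 (adjusted p = 0.0410 and 0.0421). After scaling to equal spread neither was called (adjusted p = 0.0640 and 0.0605).

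The other subunits of the complex were not called. TIF35 (YDR429C, eIF3g), which also binds eIF3i, was at −0.03 ± 0.31 (95% interval −0.77 to 0.71). RPG1 (YBR079C, eIF3a), the largest subunit, was at −0.43 ± 0.26, and HCR1 (YLR192C, eIF3j), a loosely bound subunit, at −0.20 ± 0.27. The adjusted p of these 3 genes were 0.957, 0.276 and 0.630, although RPG1 was at −0.92 with the trend removed (adjusted p = 0.0547). NIP1 (YMR309C, eIF3c) read −2.98, 2.00 and 1.11 in 6.5% ethanol, against −0.12, 0.85 and 1.99 in 0% ethanol. It was thus the lowest of the 42 genes on 6.5% culture 1 and the highest on 6.5% culture 2, and its change of −0.87 ± 0.67 became 0.13 without culture 1 of both groups.

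In the cap-binding machinery the scaffold gene TIF4631 and TIF3 fell. TIF4631 (YGR162W), the major eIF4G, read −0.88, −1.14 and −1.31 in 6.5% ethanol, against 0.23, 0.32 and 0.54 in 0% ethanol. TIF3 (YPR163C), which encodes eIF4B, a stimulator of the helicase, read −1.11, −0.99 and −1.12 in 6.5% ethanol, against 0.15, 0.25 and 0.43 in 0% ethanol. These are the most even readings among the initiation factors called, with SD of 0.21 and 0.07 over the ethanol arrays and 0.16 and 0.14 over the 0% arrays (n = 3 each). TIF4631 fell by 1.47 ± 0.26, or 2.77-fold (adjusted p = 0.0153), also with the trend removed (1.50). TIF3 fell by 1.35 ± 0.24, or 2.55-fold (adjusted p = 0.0154), a call that was lost after trend removal (adjusted p = 0.0544).

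TIF4632 (YGL049C), the second eIF4G gene, was at −0.28 ± 0.29 (95% interval −0.97 to 0.41), with 6.5% cultures 2 and 3 at 0.44 and 0.36. The difference between the changes of the eIF4G genes was −1.19 and was not tested. CDC33 (YOL139C), which encodes the cap-binding eIF4E, read −0.63, −1.21 and −0.79 in 6.5% ethanol, against −0.23, 0.46 and −0.24 in 0% ethanol. Its groups did not overlap, and its change was −0.88 ± 0.32 (adjusted p = 0.103). TIF1 (YKR059W) and TIF2 (YJL138C) encode the same eIF4A helicase, and were at −0.92 ± 0.35 and −0.95 ± 0.29 (adjusted p = 0.109 and 0.0624). In both, all ethanol arrays read below all 0% arrays, but in TIF1 by little, since on the exchanged arrays it read −0.26 in 6.5% ethanol and −0.25 in 0% ethanol, a difference of −0.01 (−0.39 for TIF2). Both genes fell when these arrays were left out, with changes of −1.38 and −1.23 (adjusted p = 0.0267 and 0.0345).

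**Figure D2:**
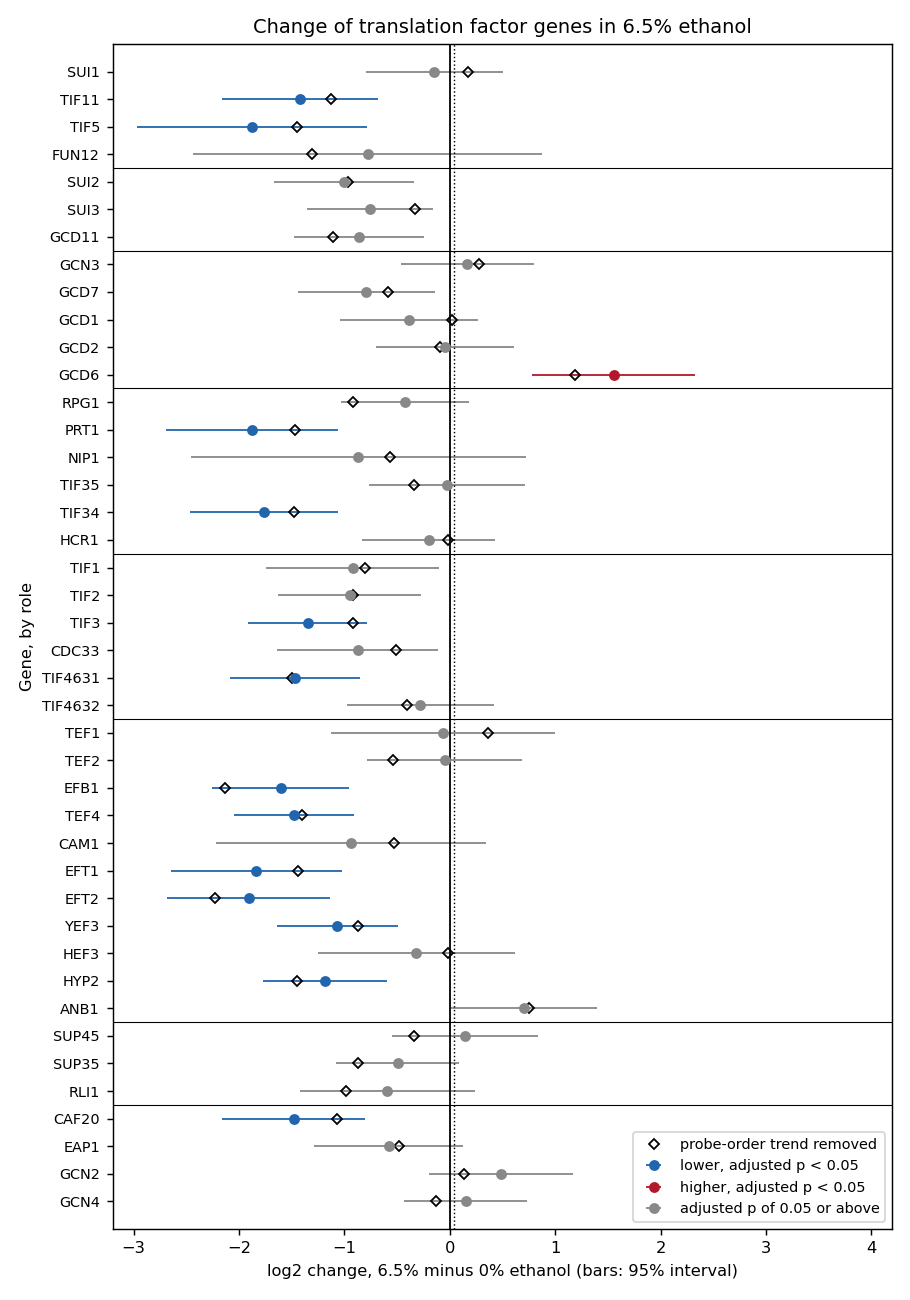
Log2 change, 6.5% minus 0% ethanol, of each of the 42 genes by role (points, with 95% intervals; blue, lower and called; red, higher and called; grey, not called). Diamonds give the change with the probe-order trend removed, and the dotted line marks the median of all features at 0.04. GCD6 is the only point called to the right of 0.

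Among the elongation factors was the largest decrease of the 42 genes, that of EFT2. EFT2 (YDR385W) and EFT1 (YOR133W) encode the same eEF2, the GTPase that translocates the ribosome. EFT2 read −1.64, −2.06 and −2.19 in 6.5% ethanol, against 0.20, −0.69 and 0.33 in 0% ethanol. EFT1 read −1.25, −1.31 and −1.89 in 6.5% ethanol, against 0.46, −0.19 and 0.78 in 0% ethanol. On both genes every ethanol array lay well below every 0% array. EFT2 fell by 1.91 ± 0.33, or 3.75-fold, and EFT1 by 1.84 ± 0.34, or 3.57-fold (adjusted p = 0.0142 and 0.0170).

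TEF1 (YPR080W) and TEF2 (YBR118W) encode the same eEF1A, the carrier of aminoacyl-tRNA. TEF1 read −0.43, 0.13 and −0.27 in 6.5% ethanol, against 0.74, −1.07 and −0.05 in 0% ethanol. TEF2 read −0.17, −0.11 and −0.43 in 6.5% ethanol, against 0.27, −0.78 and −0.05 in 0% ethanol. The 6.5% arrays lay inside the range of the 0% arrays on both genes. The changes were −0.07 ± 0.45 (95% interval −1.13 to 1.00) for TEF1 and −0.05 ± 0.31 (95% interval −0.79 to 0.69) for TEF2.

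The complex eEF1B reloads eEF1A with GTP, and 2 of its 3 genes fell. EFB1 (YAL003W), the catalytic alpha subunit, read −1.34, −1.46 and −1.58 in 6.5% ethanol, against −0.01, 0.50 and −0.04 in 0% ethanol. TEF4 (YKL081W), a gamma subunit, read −1.46, −0.68 and −0.92 in 6.5% ethanol, against 0.12, 0.60 and 0.65 in 0% ethanol. Neither gene had overlapping groups, and EFB1 fell by 1.61 ± 0.27, or 3.05-fold, and TEF4 by 1.48 ± 0.24, or 2.79-fold (adjusted p = 0.0142 and 0.0127). CAM1 (YPL048W), the other gamma subunit gene, read −2.09, 0.20 and −0.42 in 6.5% ethanol, against 0.19, −0.51 and 0.83 in 0% ethanol. With this spread its change of −0.94 ± 0.54 was not called (adjusted p = 0.258), and it was −0.27 without culture 1 of both groups and −1.51 without 0% culture 2.

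YEF3 (YLR249W), which encodes eEF3, the ATPase that clears the exit site of the ribosome, read −0.99, −1.24 and −1.09 in 6.5% ethanol, against −0.05, −0.14 and 0.08 in 0% ethanol. HYP2 (YEL034W) encodes the main eIF5A, a hypusine-bearing factor that helps the ribosome through stalling sequences. HYP2 read −1.23, −1.11 and −1.34 in 6.5% ethanol, against −0.24, −0.06 and 0.17 in 0% ethanol. The groups of both genes were tight and apart, with SD of 0.12 over the ethanol arrays for each and of 0.11 (YEF3) and 0.21 (HYP2) over the 0% arrays (n = 3 each). YEF3 fell by 1.07 ± 0.24, or 2.10-fold, and HYP2 by 1.18 ± 0.25, or 2.27-fold (adjusted p = 0.0286 and 0.0240). With the culture number as a block neither was called (adjusted p = 0.0635 and 0.0580), and after trend removal HYP2 fell by 1.45 (adjusted p = 0.0159) and YEF3 was at −0.88 (adjusted p = 0.0635). After scaling to equal spread neither was called, with YEF3 at −0.86 (adjusted p = 0.0958) and HYP2 at −0.87 (adjusted p = 0.1225). Quantile normalization also left both without a call, at −0.89 (adjusted p = 0.0839) and −0.92 (adjusted p = 0.0963).

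Each of these factors has a second gene. ANB1 (YJR047C), the eIF5A gene that yeast uses in low oxygen, read 1.36, −0.94 and −0.30 in 6.5% ethanol, against 0.52, −1.46 and −1.04 in 0% ethanol. It was higher in ethanol within each dye orientation, by 0.84 and 0.63, and both culture 1 arrays read far above the others. Its change of 0.70 ± 0.29 was not called (adjusted p = 0.136). HEF3 (YNL014W), the second eEF3 gene, read −1.53, 1.04 and 1.20 in 6.5% ethanol, against −0.06, 0.97 and 0.75 in 0% ethanol, and was at −0.32 ± 0.39 (adjusted p = 0.604), which became 0.26 without culture 1 of both groups. The changes of HYP2 and ANB1 differed by −1.89 and those of YEF3 and HEF3 by −0.75, and these differences were not tested.

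**Figure D3:**
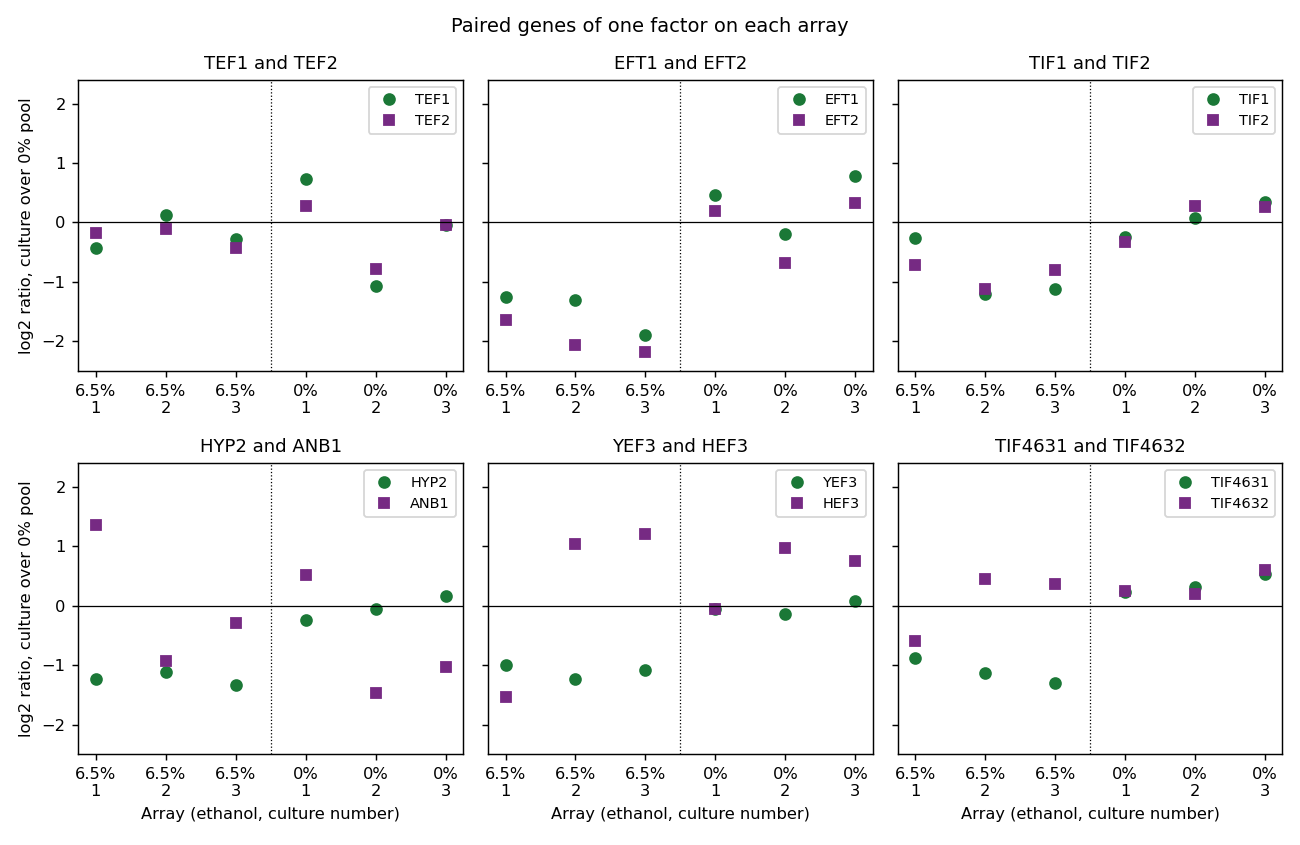
Log2 ratio of culture over 0% pool (vertical axis) on each array (horizontal axis, 6.5% cultures left of 0% cultures) for 6 pairs of genes that encode the same factor. TEF1 and TEF2 lie within 0.46 of each other on every array and TIF1 and TIF2 within 0.47, while HYP2 and ANB1 are up to 2.59 apart.

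The pairs TEF1 and TEF2, EFT1 and EFT2, and TIF1 and TIF2 are near-identical copies, so labelled cDNA of either may bind both probes, and the copies cannot be told apart with certainty. Their readings ran together. The largest difference between copies on any array was 0.46 for TEF1 and TEF2, 0.75 for EFT1 and EFT2 and 0.47 for TIF1 and TIF2. The changes of the copies differed by −0.01, 0.07 and 0.03. With the probe-order trend removed the copies moved apart, by up to 1.71 for TEF1 and TEF2 and 1.80 for EFT1 and EFT2, whose probe numbers are 6198 and 355, and 5557 and 1387. The trend-removed changes were then 0.36 for TEF1 and −0.54 for TEF2, and −1.44 for EFT1 and −2.23 for EFT2. TIF1 and TIF2 have the nearby probe numbers 3736 and 3193 and differed by up to 0.57.

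No gene of termination and recycling was called. SUP35 (YDR172W), which encodes eRF3, read 0.06, −0.72 and −0.65 in 6.5% ethanol, against 0.31, −0.15 and 0.02 in 0% ethanol, a change of −0.50 ± 0.25 (adjusted p = 0.199, and 0.0544 with the trend removed, at −0.87). SUP45 (YBR143C), which encodes eRF1, was at 0.14 ± 0.29 (95% interval −0.55 to 0.84), and at −0.34 with the trend removed. RLI1 (YDR091C), the iron-sulfur ATPase that splits spent ribosomes, was at −0.59 ± 0.35 (adjusted p = 0.272), with 0% culture 1 at 1.04.

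CAF20 and EAP1 encode proteins that bind eIF4E in place of eIF4G and so hold back cap-dependent initiation. CAF20 (YOR276W) read −2.06, −0.44 and −0.87 in 6.5% ethanol, against −0.39, 1.02 and 0.45 in 0% ethanol. The groups were apart by a small margin, and CAF20 fell by 1.48 ± 0.29, or 2.79-fold (adjusted p = 0.0189, and 0.0596 without 0% culture 2). EAP1 (YKL204W) read −0.88, 0.79 and 0.29 in 6.5% ethanol, against 0.25, 0.83 and 0.87 in 0% ethanol, and at −0.58 ± 0.30 it was not called (adjusted p = 0.211).

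The transcripts of the Gcn2 and Gcn4 branch were not called. GCN2 (YDR283C), the eIF2 kinase, read 1.09, 0.12 and −0.29 in 6.5% ethanol, against 0.54, −0.22 and −0.87 in 0% ethanol, a change of 0.49 ± 0.29 (95% interval −0.20 to 1.17, adjusted p = 0.272). GCN4 (YEL009C), the activator of amino acid synthesis genes, read 0.11, −0.10 and −0.05 in 6.5% ethanol, against 0.16, −0.46 and −0.19 in 0% ethanol. Its groups overlapped and lay close to the pool, with a change of 0.15 ± 0.25 (95% interval −0.43 to 0.74, adjusted p = 0.701). Gcn4 is known to be controlled mainly at translation and by protein stability, neither of which these arrays measure.

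Among 53 measured genes, of 55 listed, that Gcn4 is known to activate, most of them for amino acid synthesis, 9 rose and 4 fell, beside the 7.69% of features that rose and the 10.4% that fell. Their median change was 0.33, against 0.04 over all features. SNZ1 (YMR096W) of vitamin B6 synthesis read 2.68, 2.15 and 2.38 in 6.5% ethanol, against 0.30, −3.31 and −1.16 in 0% ethanol, and rose by 3.79 ± 0.65 (adjusted p = 0.0146). HIS5 (YIL116W), the histidinol-phosphate aminotransferase, read 1.17, 2.02 and 1.87 in 6.5% ethanol, against −0.26, −1.50 and −0.45 in 0% ethanol, and rose by 2.42 ± 0.42 (adjusted p = 0.0150). The groups were apart on both genes. The other genes that rose were HIS4 of histidine synthesis, ARG3 and ARG4 of arginine synthesis, LYS1, LYS20 and LYS21 of lysine synthesis and ARO3 of aromatic amino acid synthesis, by 1.25 to 2.15, and these were chosen after their values were seen.

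Of the 4 genes that fell, LYS9 shares a pathway with genes that rose. BAT1 (YHR208W), the mitochondrial aminotransferase of branched-chain amino acids, read −1.98, −1.73 and −2.35 in 6.5% ethanol, against −0.10, 0.68 and 0.13 in 0% ethanol, and fell by 2.25 ± 0.31 (adjusted p = 0.00898). LYS9 (YNR050C), saccharopine reductase of lysine synthesis, fell by 1.69 ± 0.24 (adjusted p = 0.00938), while LYS1, LYS20 and LYS21 rose. LEU9 of leucine synthesis and HOM6 of threonine and methionine synthesis fell by 1.34 and 1.45, and were named after their values were seen. After removal of the trend 9 of the 53 rose and 3 fell, beside 5.74% and 7.50% of all features, with the calls of ARO3 (adjusted p = 0.107) and LEU9 (adjusted p = 0.0843) lost and that of ARG7, of arginine synthesis, gained (adjusted p = 0.0383). With the culture number as a block 8 rose and 3 fell, beside 3.94% and 5.63% of all features. The calls of ARO3 (adjusted p = 0.0532) and HOM6 (adjusted p = 0.0518) were then lost. Without 6.5% culture 2 or 3 the calls of either direction together were 0 and 1, beside 2 and 51 over all features.

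**Figure D4:**
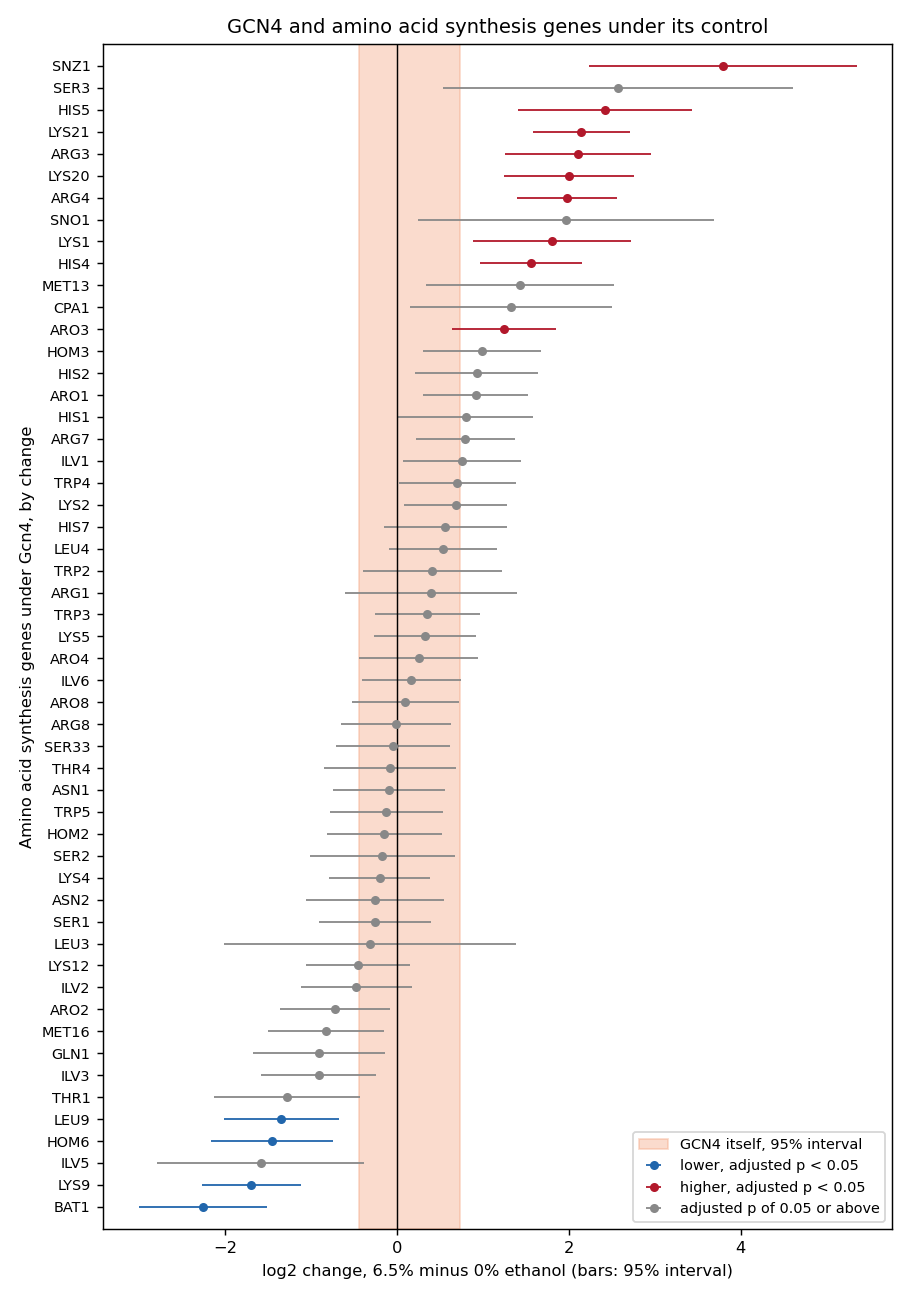
Log2 change, 6.5% minus 0% ethanol, with 95% intervals, of 53 genes known to be activated by Gcn4 (rows, ordered by change; red, higher and called; blue, lower and called; grey, not called), with the 95% interval of GCN4 itself as a band from −0.43 to 0.74. The changes run from BAT1 at −2.25 to SNZ1 at 3.79. Genes outside the band include some that were not called, such as SER3 at 2.57 and ILV5 at −1.58.

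A further list held 46 measured genes, of 47 listed, of proteins that work beside the factors, such as their modifying enzymes, helpers of Gcn2 and ribosome-bound proteins. In it 7 fell, or 15.2%, beside 10.4% of all features, and 2 rose, beside 7.69% of all features. The median change was −0.44, against 0.04 over all features. LIA1 (YJR070C), the hydroxylase that completes the hypusine residue of eIF5A, read −1.46, −1.85 and −2.21 in 6.5% ethanol, against −0.04, 0.57 and 0.51 in 0% ethanol, and fell by 2.19 ± 0.32 (adjusted p = 0.00999). ETT1 (YOR051C), a nuclear protein linked to accurate termination, read −1.86, −0.89 and −1.11 in 6.5% ethanol, against −0.07, 1.07 and 0.84 in 0% ethanol, and fell by 1.90 ± 0.24 (adjusted p = 0.00803). The groups of both genes were far apart, in the same direction as HYP2 for LIA1. DYS1, the enzyme of the preceding hypusine step, was chosen after its values were seen and was not called, at 1.04 ± 0.48 (adjusted p = 0.171).

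PCL5 (YHR071W), a cyclin that is itself activated by Gcn4 and speeds the breakdown of Gcn4, read 1.58, 2.16 and 2.34 in 6.5% ethanol, against −0.34, −0.65 and 0.52 in 0% ethanol. It rose by 2.18 ± 0.36, or 4.55-fold (adjusted p = 0.0130), with no overlap between the groups. DBP1 (YPL119C), a helicase close to the initiation helicase Ded1, read 2.00, −0.18 and −0.42 in 6.5% ethanol, against 0.52, −1.96 and −1.13 in 0% ethanol, and rose by 1.32 ± 0.30 (adjusted p = 0.0296), a call that the block removed (adjusted p = 0.0598). DED1 itself, named after its values were seen, fell by 1.51 ± 0.32 (adjusted p = 0.0238, or 0.0541 after trend removal and 0.0501 with the block), with 6.5% culture 1 at −1.94 and the other ethanol arrays at 0.21 and −0.21, against 0.28, 1.20 and 1.10 in 0% ethanol.

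The calls rested on few arrays, and single arrays decided many of them. Without 6.5% culture 2 or without 6.5% culture 3 none of the 42 genes was called by limma, with medians of −0.73 and −0.86 and with 17 and 18 genes at an unadjusted p below 0.05, of which 15 and 17 were lower; over all features 2 and 51 were called in these fits. Without 0% culture 2 there were 9 calls, with those of GCD6, TIF11, YEF3, HYP2 and CAF20 lost, beside 485 over all features. Without 0% culture 3 there were 12, with those of YEF3 and HYP2 lost, beside 754 over all features. Leaving out culture 1 of either group takes the exchanged orientation out of the comparison. That gave 15 calls, with TIF1 and TIF2 added and TIF5 lost (adjusted p = 0.0551), beside 1253 over all features. After removal of the probe-order trend 10 of the 42 genes fell and none rose, with a median of −0.70, while 7.50% of all features fell and 5.74% rose. These 10 shared 9 genes with the calls of the deposited values and added GCD11. With the culture number as a block 10 of the 42 fell and GCD6 rose, and the calls over all features numbered 607 instead of 1150, with 5.63% lower and 3.94% higher.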

How the data were processed

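The authors deposited 1 table of log2 ratios for 6368 probes on 6 two-colour arrays, without missing values. Dyes and cultures are those of the labels. The sources used here do not give the scanner, background correction, normalization or ratio direction. The values are bounded at 6.64 on both sides, the log2 of 100. The array of culture 1 of each group, on which the pool was labelled red, was multiplied by −1. The platform annotation named 1 gene for 5673 probes, several for 0 and none for 695, and symbols were brought up to date with RefSeq (assembly R64), in which all 5673 were found. Averaging probes of a gene left 6345 features.

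limma 3.58.1 in R 4.3.3 (lmFit, eBayes) was fitted on all 6 arrays with ethanol and dye orientation as terms, two-sided, with Benjamini-Hochberg adjustment over all features. It was also run on data simulated from its own fitted spread with independent noise. Such data cannot show how it behaves where noise is shared between features. The alternatives were no dye term, a lowess trend on probe number removed from each array (span 0.3), scaling to equal spread, quantile normalization, each array or both exchanged arrays left out, the replicate number as a block, the lowest-numbered probe per gene, robust eBayes, and trend removal together with the block, the last chosen after seeing the data.

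Deviations from the group means correlated across features at 0.70, 0.48 and 0.43 between same-numbered cultures of the 2 groups, so the fit with the number as a block is given where it changes a call, while the fit reported throughout has no block. The pairing comes from the values and not from the labels. Number 1 is also the exchanged dye orientation, cultures 2 and 3 correlated across numbers as well (0.51 and 0.42), and the difference between cultures 2 and 3 did not correlate between the groups (−0.04).

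All 42 members are named whatever their values, and of each of the other lists (47 and 55 names) the 2 called genes with the largest increase and the 2 with the largest decrease. The members and lists were chosen with earlier results of these data known. The number of arrays limits the precision.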

Additional observations from a re-analysis of the deposited data

How the results depend on the processing

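Directions held in every setting for the 14 translation factor genes called, but their calls depended on the dye term and on single arrays. Without the dye term limma called 0 of the 42 genes (17 at an unadjusted p below 0.05, all lower) and 78 of all features, 0 of the other translation genes and 3 of the genes under Gcn4. Over all probes the SD was 0.64, 0.98 and 0.79 on 0% cultures 1, 2 and 3. On 6.5% cultures 1, 2 and 3 it was 1.20, 0.99 and 1.06. Scaling to equal spread gave 5 translation factor genes, 301 features, 4 other translation genes and 8 genes under Gcn4. The translation factor calls lost were those of GCD6, TIF5, TIF11, TIF34, PRT1, EFB1, YEF3, HYP2 and CAF20. Quantile normalization gave 8 translation factor genes and 484 features, with the calls of GCD6, TIF5, TIF11, YEF3, HYP2 and CAF20 lost. The replicate block gave 11 translation factor genes, without TIF11, YEF3 and HYP2, and 607 features; it changed no other call among the 42. It gave 6 other translation genes, without DED1, DBP1 and EFM5, and 11 genes under Gcn4, without ARO3 and HOM6. Trend removal together with the block gave 5 translation factor genes (TIF4631, TEF4, EFB1, EFT2 and HYP2), 414 features and 7 genes under Gcn4. With 1 array left out at a time the calls ran from 0 to 15 for translation factor genes, from 2 to 1253 for features, from 0 to 9 for other translation genes and from 0 to 17 for genes under Gcn4. Fewer arrays were fitted in these settings, and the cause was not tested for any setting. Robust eBayes left the 14 calls as they were. So did the lowest-numbered probe per gene, but each of the 42 genes has a single probe. Their own values could therefore not change in that setting. Signal over background is unknown.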

Other observations

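In a pool with equal shares of RNA of the 3 cultures without ethanol the highest ratio of a 0% culture to the pool is 3, a log2 ratio of 1.58. The shares are not stated in the labels. On 502 features, 7.91% of all, at least 1 of the 0% arrays read above it, 281 of them on culture 2, 127 on culture 1 and 128 on culture 3. Among the translation factor genes this held for FUN12 (3.61 on culture 1), TIF5 and PRT1 (2.10 and 1.91 on culture 2) and NIP1 (1.99 on culture 3). With green over red as the direction of the ratios the count is 514 features, or 8.10%, with 339 on culture 2, 75 on culture 1 and 169 on culture 3, and of the translation factor genes it holds GCD6 in place of these 4. The cause was not tested.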
